A study of Mus musculus with 10 samples.

Results

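GATA factors are zinc finger proteins that bind the DNA letters GATA, and Friend-of-GATA (FOG) proteins are multi-finger cofactors that bind the GATA zinc finger rather than DNA. The 8 genes described here are Gata1 to Gata6 with Zfpm1 (FOG-1) and Zfpm2 (FOG-2), taken by gene symbol through the GENCODE M21 annotation from 38924 gene identifiers in the count files. All 8 were in the files of all 10 samples. Expression was measured by RNA sequencing of cells sorted at day 5 from mouse embryonic stem cells (mESCs) of 1 line, in which a truncated human CD4 surface protein (hCD4) is expressed from the Foxa2 locus. The 3 Foxa2+ CM and 3 Foxa2- CM samples are cardiac mesoderm (CM) carrying Kdr and Pdgfra on the surface, with or without hCD4. They came from cultures given Activin A at 8 ng/ml, BMP4 at 1 ng/ml and VEGF at 5 ng/ml. The 2 samples of haematopoietic mesoderm, labelled as high in Flk1 (Kdr), had the same factors and doses. The 2 samples of Foxa2+ endoderm were hCD4+ cells from cultures given Activin A at 75 ng/ml. No source says that replicates were separate cultures, so the p-values measure only the spread between these samples, which may be technical. All groups share the hCD4 allele, and the sorts rest on surface protein, not on RNA.

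In the embryo, Gata1, Gata2 and Gata3 are best known from blood, where Gata2 acts in stem and progenitor cells and Gata1 drives red cell and platelet lineages. Gata4, Gata5 and Gata6 act in the heart, the endoderm and the extraembryonic endoderm. FOG-1 is needed with Gata1 for red cell and megakaryocyte formation, and FOG-2 is needed with Gata4 for heart and coronary vessel development. FOG proteins recruit the CtBP and NuRD corepressors, and whether a target rises or falls depends on the gene.

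Counts on genes ran from 10926284 to 17470126 per sample, so that 3 counts, taken as the floor, equalled 0.172 to 0.275 CPM (counts scaled to the size of the library). Endoderm samples were highest in a list of 8 endoderm markers (summed level 1219 and 1349 CPM, against 169 to 367 CPM in the other samples). They were also highest in 6 epiblast and pluripotency markers (1266 and 1183 CPM, against 261 to 384 CPM), including Nanog at 162 and 156 CPM. The 8 haemato-endothelial markers summed to 990 and 1392 CPM in haematopoietic mesoderm, 181 to 351 CPM in CM and 13.6 and 19.1 CPM in endoderm. In both CM groups replicate 3 was highest for them, with 293 CPM in the hCD4+ and 351 CPM in the hCD4- sample. The 6 cardiac mesoderm markers summed to 422 to 600 CPM in the Foxa2+ and 684 to 765 CPM in the Foxa2- samples of CM. Pdgfra among them was used in the CM sort, and the other 5 had summed levels of 221 to 354 CPM in the Foxa2+ samples of CM and 390 to 488 CPM in the Foxa2- samples. Their sums were 13.3 and 13.9 CPM in endoderm and 68.1 and 148 CPM in haematopoietic mesoderm. The CM groups did not overlap in either sum. Of the 6 cardiac mesoderm markers, 2 passed as lower in Foxa2+ than in Foxa2- CM and 1 as higher (2.66% and 3.81% of all genes). Mesp1, a factor of nascent cardiac mesoderm, was at a log2 value of -3.10 (edgeR adjusted p = 0.00627), Hand1 at -1.04 (0.0429) and Nkx2-5 at 1.11 (0.0152). Of the 6 pluripotency markers 2 passed as lower, among them Nanog at -2.41 (edgeR adjusted p = 0.00132), and none as higher. Their sums overlapped, at 309 to 383 CPM in Foxa2+ CM and 326 to 384 CPM in Foxa2- CM. Sox3, higher by 1.40 (edgeR adjusted p = 0.00479), was the only 1 of 4 neural markers with enough counts to test there. The part of these other cell types in the differences given here was not tested. In sorted bulk samples, fewer cells that express a gene and less RNA per cell cannot be told apart.

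The members lie at 8 separate loci (GRCm38, mm10), given here with the gene's strand. Gata1 (ENSMUSG00000031162) is at chrX:7959260-7978071 on the minus strand, Gata2 (ENSMUSG00000015053) at chr6:88193891-88207032 on the plus strand and Gata3 (ENSMUSG00000015619) at chr2:9857078-9890034 on the minus strand. Gata4 (ENSMUSG00000021944) is at chr14:63198922-63271692 on the minus strand and Gata5 (ENSMUSG00000015627) at chr2:180325133-180334699 on the minus strand. Gata6 (ENSMUSG00000005836) is at chr18:11052064-11085635 on the plus strand. Zfpm1 (ENSMUSG00000049577) is at chr8:122282141-122337251 on the plus strand and Zfpm2 (ENSMUSG00000022306) at chr15:40655035-41104592 on the plus strand. The Zfpm2 gene spans 449558 bases, the longest of the 8, and the Gata5 gene spans 9567 bases, the shortest.

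The RefSeq promoter table (GRCm38.p6) held 6 windows for 5 of the 8 members. The 250 bases before the start are shown for Gata1, Gata2 and Zfpm1, the members of the blood partnership that were all high in haematopoietic mesoderm. The windows shown hold no annotated exon. Gata2 has another window, at chr6:88198414-88198663 within the gene, whose 250 bases are all annotated exon, and it is not shown. Capitals mark GGGCGG, the GC box bound by Sp factors, on either strand.

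Gata1, chrX:7967911-7968160, minus strand: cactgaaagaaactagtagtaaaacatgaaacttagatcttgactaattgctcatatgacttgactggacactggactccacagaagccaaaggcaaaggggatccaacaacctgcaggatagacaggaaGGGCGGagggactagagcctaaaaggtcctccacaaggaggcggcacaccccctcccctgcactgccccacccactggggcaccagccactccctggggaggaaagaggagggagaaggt
Gata2, chr6:88193641-88193890, plus strand: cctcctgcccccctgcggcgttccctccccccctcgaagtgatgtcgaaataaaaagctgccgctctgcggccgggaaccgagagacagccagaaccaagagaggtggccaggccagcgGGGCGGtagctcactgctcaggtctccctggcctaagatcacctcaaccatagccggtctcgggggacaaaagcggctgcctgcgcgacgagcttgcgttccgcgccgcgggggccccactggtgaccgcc
Zfpm1, chr8:122281891-122282140, plus strand: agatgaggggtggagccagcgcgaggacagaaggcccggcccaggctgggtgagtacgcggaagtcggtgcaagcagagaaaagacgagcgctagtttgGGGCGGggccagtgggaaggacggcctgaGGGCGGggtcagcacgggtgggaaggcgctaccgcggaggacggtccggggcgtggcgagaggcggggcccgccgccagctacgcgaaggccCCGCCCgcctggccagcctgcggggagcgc

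The Gata1 window lies within the annotated gene, before the start of its protein-coding transcript, while the Gata2 and Zfpm1 windows shown lie just outside the gene. The Gata1 window held 2 CpG dinucleotides at 54% GC, where the medians over all windows were 6 CpG and 52.4% GC. The Gata2 window shown held 22 CpG at 67.2% GC and the Zfpm1 window 28 CpG at 73.2% GC. The Gata1 and Gata2 windows shown each had 1 GC box and the Zfpm1 window had 3. The other Gata2 window had 2, and 32.7% of all 32851 RefSeq windows of this length hold at least 1. The GATA site, AGATAA with T allowed as the first base and G as the last, was searched on both strands and was not in these windows, and 26.5% of all windows hold at least 1. The forkhead site that Foxa proteins can bind, TGTTTAC with A allowed as the second base, was not there either, and is in 5.76% of all windows. A missing match says only that these letters are not in this window.

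The GATA genes other than Gata5 each had their own distribution over the 4 groups. Gata2, Gata3, Gata4, Gata6 and Zfpm1 had 594 counts or more in every CM sample. Gata1 was high in haematopoietic mesoderm and low elsewhere. Zfpm2 was higher in Foxa2+ CM and haematopoietic mesoderm than in Foxa2- CM, and near the floor in endoderm. Per exonic base Zfpm2 was above 33.9% of 16026 tested genes in Foxa2+ CM, 29.9% in haematopoietic mesoderm and 12.6% in Foxa2- CM. Gata5 was at or near 0 in all samples. Of the 8 members, 7 passed the expression filter and were tested, and Gata5 did not.

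**Figure D1:**
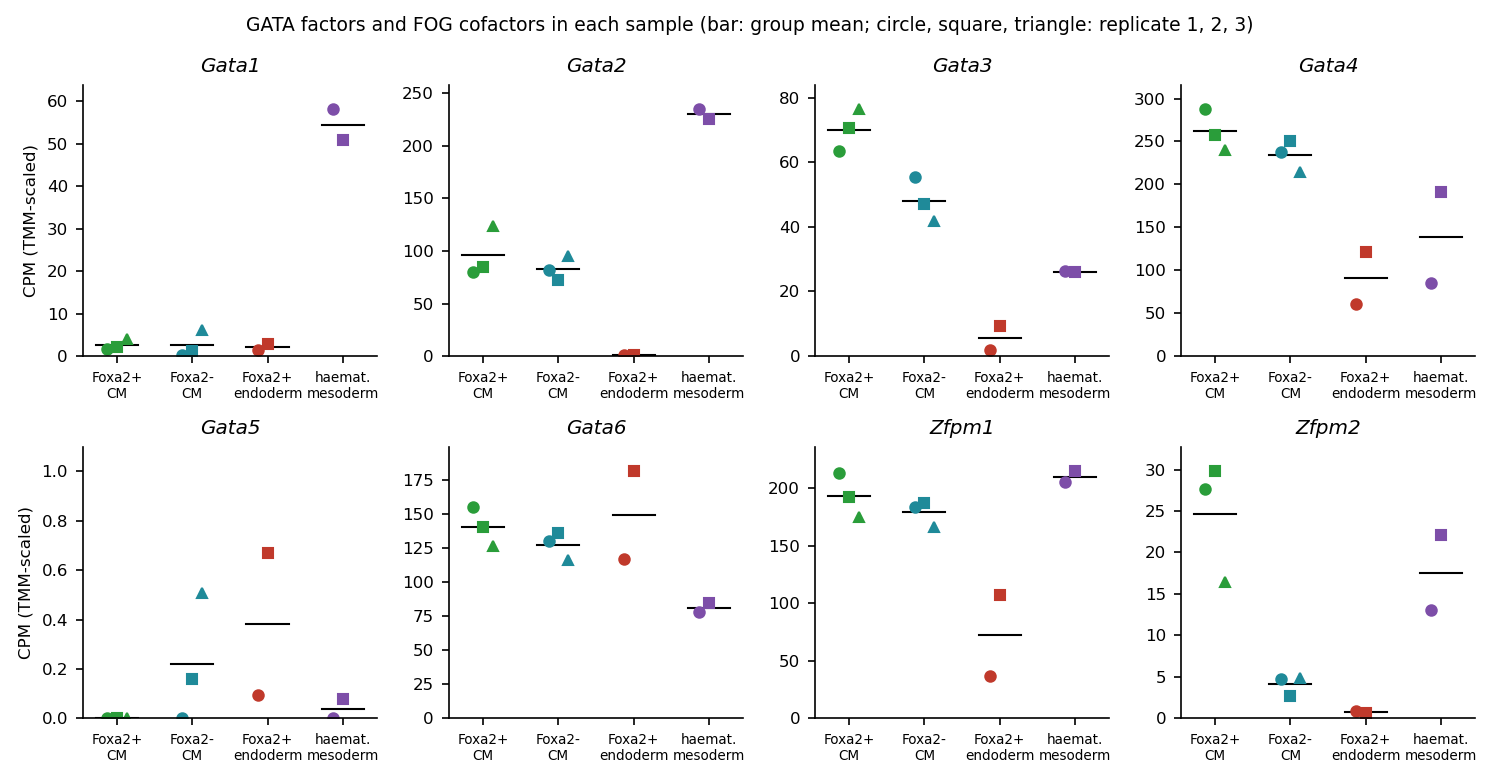
Level of each member in every sample, in TMM-scaled CPM on linear axes that start at 0 and differ between panels; points are samples (circle, square and triangle for replicates 1, 2 and 3) and bars are group means. Gata1 stands at 58.2 and 50.9 CPM in haematopoietic mesoderm and at most 6.15 CPM in the other groups, and Zfpm2 is at least 16.4 CPM in each Foxa2+ CM sample and at most 4.85 CPM in each Foxa2- CM sample.

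Gata1 is the master regulator of red cell genes. It had 58.2 and 50.9 CPM in haematopoietic mesoderm (928 and 647 counts). Foxa2+ CM had 1.75, 2.08 and 4.0 CPM, Foxa2- CM 0.309, 1.19 and 6.15 CPM, and endoderm 1.40 and 2.92 CPM. The haematopoietic samples lay above all others, and the other 3 groups overlapped. Gata1 was higher in haematopoietic mesoderm than in Foxa2+ CM by a log2 fold change of 4.37 (95% interval 2.56 to 6.18; edgeR adjusted p = 0.00487) and than in Foxa2- CM by 4.38 (2.56 to 6.19; adjusted p = 0.00499), or 6.24 without Foxa2- CM replicate 3. Endoderm was lower than haematopoietic mesoderm by a log2 value of -4.64 (edgeR adjusted p = 0.00587), a call that was lost without endoderm replicate 1 (edgeR adjusted p = 0.0551). Without endoderm replicate 2 this value was -5.28. Between the CM groups the difference in Gata1 was 0.00 with an interval of -1.95 to 1.95, too wide to show equality. Foxa2- CM replicate 3 had 109 of that group's counts, against 5 and 15 in its other samples, and it also had the highest haemato-endothelial markers of the 6 CM samples, such as Cdh5, the vascular cadherin (43.4 CPM against 1.98 to 13.6 CPM in the other 5). Without replicate 3 of both CM groups, an alternative chosen after seeing the data, Gata1 was higher in Foxa2+ CM by 1.46 (edgeR adjusted p = 0.00255) on 24 and 36 counts against 5 and 15.

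Gata2, the progenitor factor that precedes Gata1 in blood formation, was read in all 3 mesoderm groups. Its level was 235 and 226 CPM in haematopoietic mesoderm, against 79.9, 85.0 and 124 CPM for Foxa2+ CM. The Foxa2- CM samples had 81.6, 72.1 and 95.1 CPM. Endoderm had 1.02 and 1.42 CPM, from 11 and 17 counts. Haematopoietic mesoderm and endoderm did not overlap any other group, whereas the CM groups overlapped. Gata2 was higher in haematopoietic mesoderm than in Foxa2+ CM by 1.26 (interval 0.86 to 1.66; edgeR adjusted p = 0.00134) and than in Foxa2- CM by 1.47 (1.07 to 1.87; adjusted p = 0.000753). It was lower in endoderm than in Foxa2+ CM by a log2 value of -6.28 (edgeR adjusted p = 2.22e-06), and than in haematopoietic mesoderm by -7.54 (adjusted p = 1.22e-06), the largest fitted differences of any member in those comparisons. The CM groups differed by 0.21 (interval -0.19 to 0.62; edgeR adjusted p = 0.629), and replicate 3 had the highest Gata2 in each.

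Gata3, known from T cells, trophoblast and the sympathetic system, was the member other than Zfpm2 that differed between the CM groups. Foxa2+ CM had 63.4, 70.5 and 76.4 CPM, above the 55.5, 47.1 and 41.7 CPM of Foxa2- CM. Haematopoietic mesoderm had 26.3 and 26.0 CPM, and endoderm 1.96 and 9.44 CPM. No group overlapped another, in the order Foxa2+ CM, Foxa2- CM, haematopoietic mesoderm, endoderm. Foxa2+ CM exceeded Foxa2- CM by 0.55 on the log2 scale (interval 0.30 to 0.80; edgeR adjusted p = 0.0260), that is 1.46-fold. The summed cardiac mesoderm markers differed between the same groups, as did Mesp1, Nkx2-5, Nanog and Sox3, and their part in the Gata3 difference was not tested. This call was lost without Foxa2+ CM replicate 2 (edgeR adjusted p = 0.132), without Foxa2+ CM replicate 3 (0.0577), without Foxa2- CM replicate 2 (0.131) and with all 10 samples in 1 model (0.557). Haematopoietic mesoderm was lower than Foxa2+ CM by a log2 value of -1.42 (edgeR adjusted p = 0.0268), a call lost when either haematopoietic sample or any of the Foxa2+ CM samples was left out, 5 of 10 such fits (adjusted p 0.0547 to 0.0735). Against Foxa2- CM the value was -0.88 (edgeR adjusted p = 0.136), and Gata3 was called there without either endoderm sample (0.00354 and 0.00351). Endoderm was lower than both CM groups, by -3.60 (edgeR adjusted p = 0.000338) and -3.05 (adjusted p = 0.000899), and lower than haematopoietic mesoderm by -2.18 (adjusted p = 0.00583). Without endoderm replicate 1 these 3 values were -2.93, -2.37 and -1.48, and without endoderm replicate 2 they were -5.18, -4.62 and -3.73, all still called.

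Gata4, needed for the heart tube and the ventral foregut, was the GATA gene with the highest level per exonic base in CM. Foxa2+ CM had 288, 258 and 240 CPM, which overlapped the 238, 250 and 214 CPM of Foxa2- CM. Haematopoietic mesoderm had 85.3 and 191 CPM, and endoderm 60.1 and 121 CPM, so the samples within each of these groups differed more than the CM samples did, and these groups overlapped each other. The CM groups differed by 0.16 (interval -0.04 to 0.36; edgeR adjusted p = 0.374). Endoderm was lower than Foxa2+ CM by a log2 value of -1.52 (edgeR adjusted p = 0.00802) and than Foxa2- CM by -1.36 (adjusted p = 0.0156), and both calls were lost without endoderm replicate 1 (adjusted p = 0.0619 and 0.110). Without endoderm replicate 2 these values were -2.14 and -1.97. For haematopoietic mesoderm the values were -0.92 against Foxa2+ CM (edgeR adjusted p = 0.0778) and -0.76 against Foxa2- CM (adjusted p = 0.140). Without haematopoietic replicate 2, which had the higher Gata4 and the higher sum of the 5 cardiac mesoderm markers other than Pdgfra (148 against 68.1 CPM), they were -1.65 (edgeR adjusted p = 0.00758) and -1.47 (adjusted p = 0.0129). Endoderm and haematopoietic mesoderm differed by -0.60 (edgeR adjusted p = 0.249), by -1.08 without haematopoietic replicate 1 (adjusted p = 0.0224) and by 0.09 without haematopoietic replicate 2 (adjusted p = 0.860).

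Gata6, a regulator of primitive and definitive endoderm and of the outflow tract, was the most evenly spread of the 7 tested members. Foxa2+ CM had 155, 140 and 127 CPM and Foxa2- CM had 130, 136 and 116 CPM. There were 117 and 181 CPM in endoderm and 78.0 and 84.4 CPM in haematopoietic mesoderm. The CM groups and endoderm overlapped, and haematopoietic mesoderm lay below all of them. Gata6 was lower in haematopoietic mesoderm than in Foxa2+ CM by a log2 value of -0.79 (interval -1.17 to -0.42; edgeR adjusted p = 0.00904) and than in Foxa2- CM by -0.65 (-1.02 to -0.27; adjusted p = 0.0222). The second of these was lost without Foxa2- CM replicate 1, Foxa2- CM replicate 2 or haematopoietic replicate 1 (edgeR adjusted p = 0.0533, 0.0551 and 0.0895). It was higher in endoderm than in haematopoietic mesoderm by 0.88 (interval 0.47 to 1.28; edgeR adjusted p = 0.00498). Endoderm differed from Foxa2+ CM by 0.09 (interval -0.28 to 0.45; edgeR adjusted p = 0.709) and from Foxa2- CM by 0.23 (-0.13 to 0.59; adjusted p = 0.313), and without endoderm replicate 2 these values were -0.28 and -0.13. Without endoderm replicate 1 Gata6 was higher in endoderm than in Foxa2- CM by 0.49 (edgeR adjusted p = 0.0201). The CM groups differed by 0.15 (interval -0.06 to 0.35; edgeR adjusted p = 0.456).

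Gata5, a partner of Gata4 and Gata6 in heart and gut, gave no counts in the 3 Foxa2+ CM samples. Foxa2- CM had 0, 2 and 9 counts, endoderm 1 and 8, and haematopoietic mesoderm 0 and 1. Foxa2- CM replicate 3 and endoderm replicate 2 lay above the floor of 3 counts, and in a sample with no counts a level of up to that floor, 0.172 to 0.221 CPM in Foxa2+ CM, remains possible by counting error alone. At this depth no difference between groups was detectable for Gata5.

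Set side by side per exonic kilobase (RPKM), which allows levels of different genes to be compared, Gata4 made up 49.3% to 57.9% of the summed level of the 6 GATA genes in the 6 CM samples. Gata6 came next in CM with 15.6% to 18.8%, then Gata2 with 11.5% to 18.4% and Gata3 with 10.1% to 15.4%, and the range of Gata2 overlapped those of Gata6 and Gata3. In endoderm the sum was almost all Gata4 (44.4% and 49.4%) and Gata6 (51.9% and 44.2%), with Gata2 at 0.547% and 0.418%. In haematopoietic mesoderm Gata2 took 40.4% and 31.8%, Gata1 22.1% and 15.9%, and Gata4 20.3% and 37.4%. The summed level itself was 122 to 129 RPKM in Foxa2+ CM, 103 to 111 RPKM in Foxa2- CM, 108 and 131 RPKM in haematopoietic mesoderm, and 34.7 and 63.0 RPKM in endoderm.

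**Figure D2:**
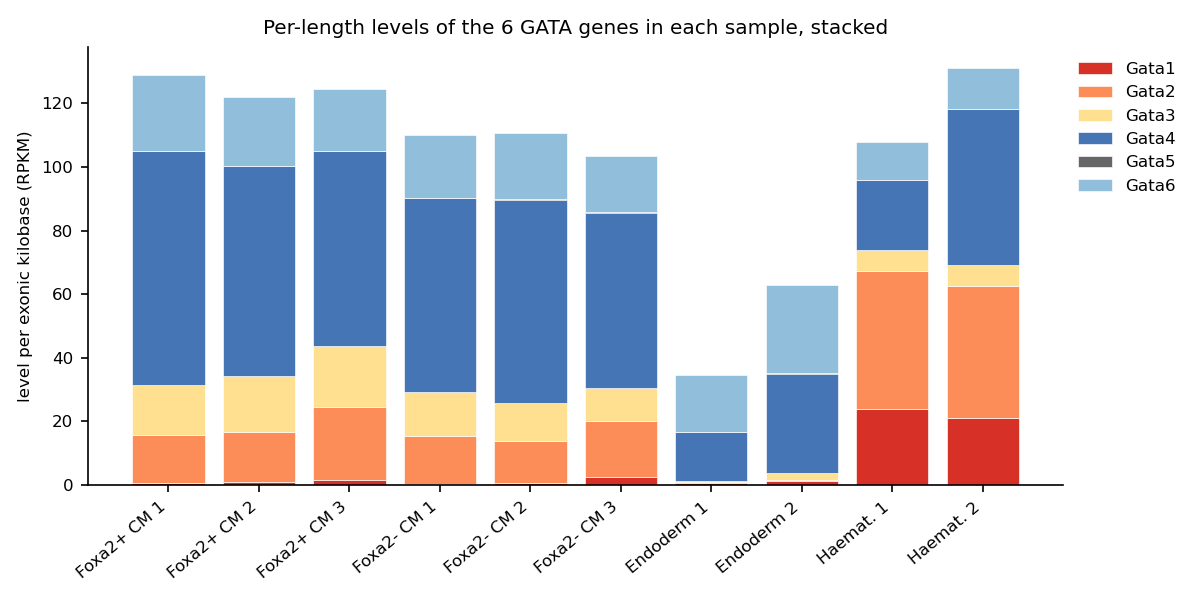
Stacked bars of the level per exonic kilobase (RPKM) of the 6 GATA genes in each of the 10 samples; the height of a bar is their sum. Endoderm bars, at 34.7 and 63.0 RPKM, are the lowest and consist mostly of Gata4 and Gata6, and Gata1 and Gata2 are widest in haematopoietic mesoderm.

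The ratio of Gata4 to Gata6 per exonic base was nearly constant in CM, with 3.10, 3.07 and 3.15 in Foxa2+ CM, against 3.04, 3.08 and 3.09 in Foxa2- CM. It was 0.855 and 1.12 in endoderm, below every CM sample, and 1.82 and 3.78 in haematopoietic mesoderm, on either side of CM. The ratio of Gata2 to Gata1 was 1.82 and 2.00 in haematopoietic mesoderm, 14.0 to 20.6 in Foxa2+ CM and 6.99 to 119 in Foxa2- CM, where Gata1 rests on 5 to 109 counts. In endoderm it was 0.331 and 0.219, with Gata2 at 11 and 17 counts and Gata1 at 15 and 35. These ratios are descriptions and were not tested.

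**Figure D3:**
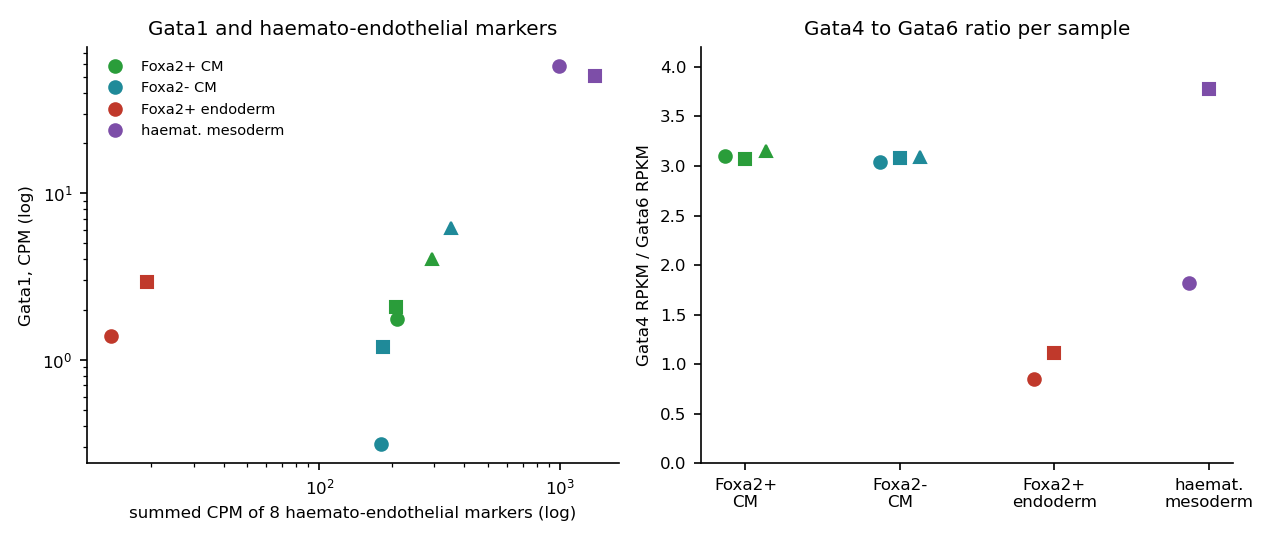
Left, Gata1 in CPM against the summed CPM of 8 haemato-endothelial markers, both on log axes, 1 point per sample with the replicate as the shape; right, the ratio of Gata4 to Gata6 RPKM in each sample on a linear axis. Replicate 3 of each CM group (triangles) lies to the right of and above the others of its group, and the 6 CM ratios lie between 3.04 and 3.15 while endoderm is at 0.855 and 1.12.

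Zfpm1, the cofactor FOG-1, was high in all 3 mesoderm groups. Foxa2+ CM had 213, 192 and 176 CPM, Foxa2- CM had 184, 188 and 167 CPM and haematopoietic mesoderm had 206 and 215 CPM, so that Foxa2+ CM overlapped each of the other mesoderm groups while Foxa2- CM lay below haematopoietic mesoderm. Endoderm was below them all with 37.1 and 108 CPM. Fitted differences among the mesoderm groups were small: 0.11 between the CM groups (interval -0.08 to 0.31; edgeR adjusted p = 0.565), 0.12 for haematopoietic mesoderm against Foxa2+ CM (-0.58 to 0.81; adjusted p = 0.818) and 0.23 against Foxa2- CM (-0.46 to 0.92; adjusted p = 0.656). The intervals against haematopoietic mesoderm were wide. They come from the fit of all 10 samples, whose spread includes that between the endoderm samples. Endoderm was lower than Foxa2+ CM by a log2 value of -1.42 (edgeR adjusted p = 0.00911), than Foxa2- CM by -1.30 (adjusted p = 0.0156) and than haematopoietic mesoderm by -1.53 (adjusted p = 0.00873). Without endoderm replicate 2, which had the higher Zfpm1, these were -2.40, -2.28 and -2.50, and over all fits that left out 1 sample they came no nearer to 0 than -0.88, -0.76 and -0.98. Per exonic base Zfpm1 was above 97.9% of 16026 tested genes in Foxa2+ CM and above 98.1% in haematopoietic mesoderm.

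Zfpm2, the cofactor FOG-2, had the largest difference of any member between the CM groups. The Foxa2+ CM samples had 27.6, 29.8 and 16.4 CPM (378, 515 and 291 counts). Those of Foxa2- CM had 4.76, 2.70 and 4.85 CPM (77, 34 and 86 counts), with no overlap. Haematopoietic mesoderm had 13.04 and 22.1 CPM and overlapped Foxa2+ CM, and endoderm had 0.838 and 0.585 CPM, from 9 and 7 counts, the lowest of all samples. The difference in Zfpm2 between the CM groups was 2.57 on the log2 scale (SE 0.30; interval 1.88 to 3.25; edgeR adjusted p = 0.00439), and passed in each of the 6 fits that left out 1 CM sample, at 2.35 to 2.79. Foxa2+ CM replicate 3 had the lowest Zfpm2 of its group and also the lowest Foxa2 (3.49 CPM, against 20.01 and 16.01 CPM), and without it the difference was 2.79. Of the other 2 samples, the one with more Foxa2 had less Zfpm2 (27.6 against 29.8 CPM). Replicate 3 also had the highest haemato-endothelial markers of its group (293 CPM), and the part of either in its Zfpm2 level was not tested. The summed cardiac mesoderm markers differed between the same groups, as did Mesp1, Nkx2-5, Nanog and Sox3, and their part in the Zfpm2 difference was not tested. Zfpm2 was also higher in haematopoietic mesoderm than in Foxa2- CM by 2.08 (interval 1.30 to 2.86; edgeR adjusted p = 0.00312), and differed from Foxa2+ CM by -0.49 (-1.25 to 0.28; adjusted p = 0.343). Endoderm, which had the most Foxa2 of the 4 groups (185 and 182 CPM), was lower in Zfpm2 than Foxa2+ CM by -5.10 (edgeR adjusted p = 6.82e-05), than Foxa2- CM by -2.53 (adjusted p = 0.00389) and than haematopoietic mesoderm by -4.62 (adjusted p = 0.00015).

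Per exonic base, FOG-1 exceeded FOG-2 in every sample. Zfpm2 was 0.0343 to 0.0568 of the Zfpm1 level in Foxa2+ CM, 0.00528 to 0.0107 in Foxa2- CM, 0.0233 and 0.0378 in haematopoietic mesoderm and 0.00829 and 0.00200 in endoderm. The FOG genes together stood at 0.416 to 0.495 of the summed GATA level in Foxa2+ CM and at 0.465 to 0.487 in Foxa2- CM. The corresponding values were 0.558 and 0.485 in haematopoietic mesoderm and 0.308 and 0.489 in endoderm. Counts per exonic base came to at most 1.14 for Gata4 and 0.95 for Zfpm1, and since the authors removed reads that start at the same place and strand, the highest levels may be understated relative to low ones.

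Between the CM groups, 2 of the 7 tested members passed, Zfpm2 and Gata3, both higher in Foxa2+ CM. Of all 15284 genes tested there 6.48% passed, 3.81% higher and 2.66% lower. The median of the 7 members was 0.16 and that of all genes -0.0014 (log2). Of endoderm against Foxa2+ CM, 5 of 7 passed, all lower in endoderm (Gata2, Gata3, Gata4, Zfpm1, Zfpm2), where 35.0% of 16180 genes passed, 18.3% higher and 16.7% lower. The same 5 members passed in endoderm against Foxa2- CM, where 30.1% of genes did, 16.1% higher and 14.0% lower. These comparisons share the endoderm samples. Their member medians were -1.52 and -1.36, against 0.0072 and 0.0050 for all genes.

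Of haematopoietic mesoderm against Foxa2+ CM, 4 of 7 passed, with Gata1 and Gata2 higher and Gata3 and Gata6 lower, and 22.8% of genes passed, 11.6% higher and 11.2% lower. Against Foxa2- CM, 4 of 7 passed, with Gata1, Gata2 and Zfpm2 higher and Gata6 lower, and 21.6% of genes passed, 11.3% higher and 10.3% lower. Member medians were -0.49 and 0.23, against 0.03 and 0.02 for all genes, and both comparisons use the same haematopoietic samples. Of endoderm against haematopoietic mesoderm, 6 of 7 passed, with Gata6 higher in endoderm and Gata1, Gata2, Gata3, Zfpm1 and Zfpm2 lower, where 32.6% of genes passed, 16.4% higher and 16.2% lower. Fitted on those 4 samples alone, 3 members passed there, Gata1, Gata2 and Zfpm2.

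**Figure D4:**
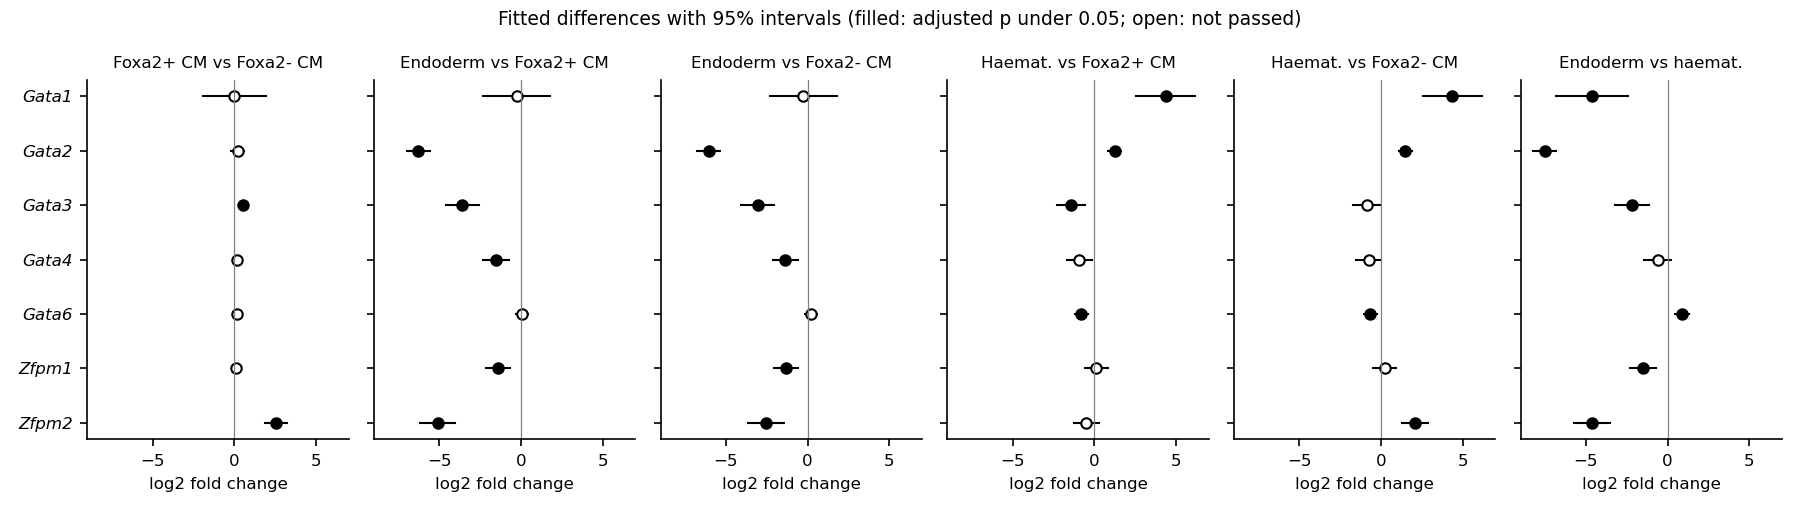
Log2 fold changes of the 7 tested members in the 6 comparisons, with 95% intervals from the edgeR fit; filled points passed at an adjusted p under 0.05 and open points did not, and values right of the line are higher in the group named first. Zfpm2 and Gata3 are the filled points between the CM groups, at 2.57 and 0.55.

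Gata1 and Gata2 work in blood with basic helix-loop-helix, LIM, ETS and other factors, such as Gfi1b and Ikzf1. A list of 17 such partners was used. In haematopoietic mesoderm 12 of 17 were higher than in Foxa2+ CM and 14 of 17 than in Foxa2- CM, with none lower, where 11.6% and 11.3% of all genes were higher. The list medians were 2.14 and 2.94, against 0.03 and 0.02 for all genes. Against Foxa2+ CM, Gfi1b, a transcriptional repressor needed for red cell and platelet development, was higher by 5.47 (edgeR adjusted p = 0.0033), Spi1 by 4.65 (0.00148), Ikzf1 by 4.61 (0.00537) and Lyl1, a relative of Tal1, by 4.06 (0.00283). In endoderm against Foxa2+ CM, 9 of 17 were lower and 2 higher (16.7% and 18.3% of all genes), with Erg at -8.22, Tal1 at -6.33, Cbfa2t3 at -6.29 and Fli1 at -4.05 (edgeR adjusted p 0.000246 to 0.00707). Between the CM groups 1 of 16 tested partners was higher and none was lower, close to the 6.48% of all genes that passed, with a median of 0.06.

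Of 16 matched erythroid target genes, 9 were counted well enough to test in the 10-sample fit, and 8 of the 9 were higher in haematopoietic mesoderm than in Foxa2+ CM, beside 11.6% of all genes. This list shares genes with the blood partners, among them Gfi1b and Nfe2, so the counts of the lists are not independent. Alas2, the red cell form of the first haem synthesis enzyme, was higher by 3.22 (edgeR adjusted p = 0.00135), Gypc, a red cell membrane glycophorin, by 2.44 (0.00109) and Nfe2 by 1.86 (0.0059). Against Foxa2- CM, 6 of 9 were higher, beside 11.3% of all genes. The near-identical adult globins Hba-a1 and Hba-a2, whose reads may not be assigned to either copy, had no counts and at most 5 counts in any sample. The embryonic globin Hbb-bh1 had 47 and 295 counts in haematopoietic mesoderm (2.95 and 23.2 CPM), against at most 57 in any other sample. Between the CM groups 1 of 8 tested (2.66% of all genes were lower), Kit, the stem cell factor receptor, was lower in Foxa2+ CM by a log2 value of -1.06 (edgeR adjusted p = 0.0261).

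Gata4 and Gata6 act in the heart with Nkx2-5, T-box, Hand, Mef2, Srf and other factors, such as Isl1 and Myocd. A list of 16 such partners was used. Of the 15 tested between the CM groups, 3 were higher in Foxa2+ CM and 2 lower, beside 3.81% and 2.66% of all genes. Isl1, a factor of the second heart field, was lower by -2.69 (edgeR adjusted p = 0.00446) and Hand1 by -1.04 (0.0429), while Myocd, a coactivator of Srf, was higher by 1.49 (0.00573) and Nkx2-5, the cardiac homeobox factor, by 1.11 (0.0152). The list median was -0.06. In endoderm 7 of 16 were lower than in Foxa2+ CM and 2 higher (16.7% and 18.3% of all genes), led by Hand2 at -8.26, Nkx2-5 at -7.46, Hand1 at -4.77 and Tbx20 at -4.45 (edgeR adjusted p 3.89e-06 to 0.000771). In haematopoietic mesoderm 4 of 16 were lower than in Foxa2+ CM and 2 higher (11.2% and 11.6% of all genes), with Nkx2-5 at -2.75 (edgeR adjusted p = 0.000226) and Tbx20 at -2.05 (0.0129).

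Cardiac muscle genes that Gata4 is known to bind were scarce, with a summed level of 29.7 to 52.8 CPM for 13 genes over all samples. Actc1, cardiac actin, was lower in Foxa2+ CM than in Foxa2- CM by -2.71 (edgeR adjusted p = 0.00198), at 0.803 to 1.30 CPM against 6.0 to 8.33 CPM. Of the 8 tested there, 1 was higher and 1 lower (3.81% and 2.66% of all genes). In endoderm 5 of 10 were higher and 1 lower than in Foxa2+ CM, beside 18.3% and 16.7% of all genes. The largest changes went both ways: Myl4, an atrial light chain, was at -4.49 (edgeR adjusted p = 0.000129), while Actc1 was at 3.18 (0.000216) and Myh6, a cardiac myosin, at 2.87 (0.000573), with 8.84 and 7.60 CPM of Myh6 in endoderm.

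Foxa, Hnf, Sox and other factors, such as Gsc and Hhex, which act with Gata4 and Gata6 in endoderm, formed a list of 12. It includes the sorting gene Foxa2. In endoderm 8 of 12 were higher than in Foxa2+ CM and 1 lower, and 9 were higher and 1 lower than in Foxa2- CM, where 18.3% and 16.1% of all genes were higher. Against Foxa2+ CM, Foxa1 was higher by 5.94 (edgeR adjusted p = 8.77e-07) and Hnf4a by 3.57 (0.0145), and Sox7, an endothelial SoxF factor, was lower by -4.64 (0.0165). Of the 12, 3 were higher in Foxa2+ than in Foxa2- CM, beside 3.81% of all genes, among them Foxa2, which follows from the sort, at 3.18 (edgeR adjusted p = 0.0353) and Sox17 at 2.09 (0.0118). Of 16 tested endoderm targets, 2 were higher and 4 lower in endoderm than in Foxa2+ CM, a share near the 35.0% of all genes that passed, so the count is not a result about these targets. The 4 lower were Lama1 at -3.06 (edgeR adjusted p = 0.000483), Soat2 at -2.56 (0.00243), Col4a2 at -1.38 (0.00917) and Sparc at -1.16 (9.7e-05). All 4 were at least 2-fold lower, while the 2 higher did not reach 2-fold. Soat2 was higher in Foxa2+ CM than in the other CM group by 1.03 (edgeR adjusted p = 0.0227). None of the 16 passed by edgeR between haematopoietic mesoderm and either CM group, with an unadjusted p under 0.05 for 0 against Foxa2+ CM and 2 against Foxa2- CM, and DESeq2 calling 0 and 1.

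The next list held CtBP and NuRD subunits, through which FOG cofactors repress, and Tacc3, a protein that binds FOG-1. Of 16 listed, none passed between the CM groups by edgeR or DESeq2 and none had an unadjusted p under 0.05. There were 7 higher and 1 lower in endoderm than in Foxa2+ CM, beside 18.3% and 16.7% of all genes. Against Foxa2- CM 3 were higher and 1 lower in endoderm, beside 16.1% and 14.0% of all genes. Against haematopoietic mesoderm 2 were higher and none lower, beside 16.4% and 16.2%. None of the 16 passed with a 2-fold difference in any of the 6 comparisons. Their summed level was 2587 to 2882 CPM in CM, 3047 and 3165 CPM in endoderm and 2708 and 2976 CPM in haematopoietic mesoderm. Of 9 other proteins with a GATA-type finger, 5 of them also in the FOG list, none passed between the CM groups by edgeR or DESeq2 (1 at an unadjusted p under 0.05), and Trps1, a repressor that binds GATA sites, was lower in endoderm than in haematopoietic mesoderm by -1.11 (edgeR adjusted p = 0.00968).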

How the data were processed

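RNA sequencing data of 10 sorted samples (3 Foxa2+ CM, 3 Foxa2- CM, 2 endoderm, 2 haematopoietic mesoderm) were analysed, with groups taken from the sample labels. The authors made libraries with a TruSeq v2 kit, sequenced single ends of 50 nt, mapped reads with STAR 2.5.0a (2 passes, mm10), removed duplicates with Picard, counted with HTSeq 0.6.0 and used DESeq2. The strand setting is not given in the sources used here. The values the authors deposited are raw counts per Ensembl gene. Symbols, loci and exonic lengths came from GENCODE M21 on the same build, which matched 37607 of 38924 identifiers and is later than the annotation the authors used.

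From these counts, edgeR 4.0.16 in R 4.3.3 gave TMM-scaled CPM, RPKM over the union of exons and quasi-likelihood tests with default expression filters, with Benjamini-Hochberg adjustment over all genes tested at 0.05. A standard error was taken from the fold change (log2, unsigned) over the root of the F statistic. The 6 CM samples were fitted alone for the CM comparison, and all 10 samples in 1 model for the other 5. Intervals are 95% and cover no separate cultures. Between 17.1% and 25.6% of uniquely mapped reads fell on no gene and stayed out. Replicates of a group differed by more than sampling noise (chi-square per degree of freedom 4.0 to 23.6), so each was kept. In simulated data with 200 genes changed by 1.5 (log2), 96% were recovered for the CM comparison over 15284 genes, where 18 unchanged genes were also called, and 82.5% for endoderm against haematopoietic mesoderm over 16180 genes, where 9 were.

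The members and lists were chosen with earlier results of these data known. The text names all 8 members. From each list and comparison described it names at most the 4 genes with the largest change among those called, at least 2-fold and with a mean of at least 50 counts, while Hba-a1, Hba-a2, Hbb-bh1, Nanog in endoderm, Cdh5 and the cardiac marker sum without Pdgfra were chosen after values were seen. For likeness it names the 3 protein-coding genes with the highest Pearson r of log2 CPM (prior count 2), of which 1 is not reported here. Alternatives were DESeq2 1.42.0, its size factors, library size only, no filter, a 2-fold limit, a replicate block, other sample sets and leaving out each sample. Promoter sequences are RefSeq's. Figures were drawn with matplotlib 3.10.9.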

Additional observations from a re-analysis of the deposited data

How the results depend on the processing

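Among the CM groups 2 members passed (Zfpm2 and Gata3), and 1 (Zfpm2) with a 2-fold limit or with all 10 samples in 1 model. Leaving out each CM sample gave 1 to 2. Between endoderm and haematopoietic mesoderm 6 passed, and 3 with only those groups fitted, where fewer samples estimate the spread. In the other 4 comparisons the number of members called stayed within 1.5 times under every alternative run. DESeq2 called the same members as edgeR in all 6 comparisons. The labels do not say that replicate numbers pair samples, so the main fits took no pairs. Deviations of same-numbered CM samples correlated at 0.607, 0.0901 and 0.680. No source says whether same-numbered CM samples shared a culture, and if they did, the main CM p-values leave that pairing out. Replicates 1 and 3 correlated best with their own number, and replicate 2 did not. With a replicate block 2556 genes passed between the CM groups, against 990 without it, and the number of members called there remained 2. The replicate block also called Gata4 lower in haematopoietic mesoderm than in Foxa2+ CM (-1.08; edgeR adjusted p = 0.0299) and turned Gata1 in endoderm to 0.52 against Foxa2+ CM and 0.95 against Foxa2- CM, with neither called. Gata4 in haematopoietic mesoderm against Foxa2+ CM was also called with no filter (adjusted p = 0.0314) and without endoderm replicate 1 or 2 (0.0464 and 0.0460), and Gata3 against Foxa2- CM with only those groups fitted (0.0166). Values that turned sign without a call were Gata1 between the CM groups, at -0.0059 with DESeq2 size factors, -0.0034 with library size only and -0.0053 with no filter. Leaving out 1 sample gave -0.54 to 1.90 for Gata1 and -0.0070 to 0.34 for Gata2 between the CM groups, -0.94 to 0.18 and -0.93 to 1.60 for Gata1 in endoderm against Foxa2+ and Foxa2- CM, -0.28 to 0.33 and -0.13 to 0.49 for Gata6 in the same comparisons, and -1.20 to 0.090 for Gata4 between endoderm and haematopoietic mesoderm. Without replicate 3 of both CM groups, chosen after seeing the data, 3 members passed between the CM groups (Gata1, Gata3 and Zfpm2), 5, 5, 3, 4 and 6 in the other comparisons in the order given below, Gata1 in endoderm was 0.15 against Foxa2+ CM and 1.59 against Foxa2- CM, Gata6 against Foxa2+ CM was -0.0090, and Gata3 in haematopoietic mesoderm against Foxa2+ CM was no longer called (adjusted p = 0.0665). The cause was not tested. Over all genes, the CM comparison called 460 with the 2-fold limit, 288 with all 10 samples, 234 to 1701 without 1 sample and 2632 without replicate 3. The 2-fold limit gave 3032 of 5660, 2748 of 4875, 1848 of 3685, 1884 of 3492 and 3098 of 5276 in the other comparisons, in the order endoderm against Foxa2+ and Foxa2- CM, haematopoietic mesoderm against the same, and endoderm against haematopoietic mesoderm. With only the groups compared, 2159 genes passed for haematopoietic mesoderm against Foxa2- CM and 2675 for endoderm against haematopoietic mesoderm. With library size only, haematopoietic mesoderm had 1434 higher and 2101 lower genes against Foxa2+ CM (1869 and 1816 with TMM) and 1380 and 1997 against Foxa2- CM (1821 and 1671). No called difference of a member changed direction under any alternative run.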

Other observations

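Several members overlap other annotated genes, whose reads cannot be told apart by strand with this kit. 4930412O13Rik lies on the opposite strand within Gata3, shares no exonic base with it, and had 132, 178 and 196 counts in Foxa2+ CM, 149, 79 and 105 in Foxa2- CM, 0 and 5 in endoderm and 73 and 58 in haematopoietic mesoderm. Its order of groups by range was that of Gata3, except that the CM groups overlapped. 9230102O04Rik shares 77 exonic bases with Gata3 on the same strand and had at most 29 counts, and Gm13256 shares 155 on the opposite strand and had at most 4. 1010001N08Rik, a processed transcript on the strand opposite Gata6 that shares 93 exonic bases with it, had 107 to 189 counts in CM, 41 and 81 in endoderm and 47 and 44 in haematopoietic mesoderm, so its endoderm counts lay below those of CM while those of Gata6 did not.

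The genes whose log2 CPM followed each member most closely over the 10 samples, among 11698 protein-coding candidates, are given as a description, since the samples fall into 4 groups and the points share libraries. For Gata2 they included Eng, an endothelial TGF-beta coreceptor (Pearson r = 0.996), and Nrp2, a neuropilin (0.992). For Gata1 they were Galnt18, Neu3 and Ptpre (0.970, 0.969 and 0.967), and for Gata3 Cenpm, Nxf7 and Frmd4b (0.990, 0.989 and 0.986). Gata4 was followed by Six2, Me1 and Necap2 (0.986, 0.975 and 0.975) and Gata6 by Fkbp11, Bhlha15 and Tle6 (0.975, 0.963 and 0.959). Zfpm1 was followed by Rtl5, Bcl7b and Klf16 (0.987, 0.979 and 0.974) and Zfpm2 by Tns2, Uvrag and Polr3gl (0.987, 0.978 and 0.970).

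The endoderm samples differed from each other for several members. Replicate 2 exceeded replicate 1 in Gata3 (9.44 against 1.96 CPM), Gata4 (121 against 60.1 CPM), Gata6 (181 against 117 CPM) and Zfpm1 (108 against 37.1 CPM), and the 12 endoderm partners summed to 1315 against 1029 CPM, while the 6 pluripotency markers summed to 1183 against 1266 CPM.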
